A study of Caenorhabditis elegans with 2 samples.

Results

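Peaks in autosomal DNA far from protein-coding genes were examined in ChIP-seq of eGFP-tagged NHR-12, a nuclear hormone receptor, in L2 larvae of Caenorhabditis elegans. In ChIP-seq, chromatin is pulled down with an antibody and the DNA that comes with it is sequenced; a peak is an interval called as enriched over a control. All animals were of strain OP318, which carries the unc-119(ed3) mutation on chromosome III and the transgene insertion wgIs318 for tagged nhr-12. Whole animals of both sexes were pooled, their age in hours is given as unknown, and the 2 samples are biological replicates of this single group. No strain without the tag was analysed here, so whether a peak depends on NHR-12 was not tested, and since the animals were whole, a site used in a few cells cannot be told apart from a weakly used site.

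A peak was taken as distal when its summit lay outside every protein-coding gene and more than 2000 bp from every protein-coding 5′ end. The X chromosome and the piRNA clusters of chromosome IV (4.5 to 7.0 Mb and 13.5 to 17.2 Mb) were left out. These conditions use position alone. They selected 3175 of the 20460 remaining autosomal peaks, of 29431 peaks in the pooled relaxed list. The relaxed list is deliberately permissive and, per the accompanying notes, holds background intervals as well as peaks. Of the other autosomal peaks, 5878 were intergenic but within 2000 bp of a 5′ end, called gene-proximal below, and 11407 lay inside protein-coding genes.

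In worms, as in other animals, regulatory DNA includes promoters next to genes and distal elements such as enhancers, which act over a distance on the genes around them. The C. elegans genome is compact, its intergenic intervals are short, and most known regulatory elements lie close to the genes they serve. Nuclear hormone receptors form a family that is much larger in C. elegans than in mammals, and many members bind short elements related to AGGTCA. The arms of worm autosomes are rich in repeats and in expanded gene families, while the centres hold more of the conserved and highly expressed genes.

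The strongest distal peaks differed widely in base composition, as the 101 bp around their summits show (ce11, plus strand, sequence from the RefSeq genome WBcel235). The first pair lay beyond the 3′ ends of F44E5.4 (chrII:11756990-11757090) and F44E5.5 (chrII:11761979-11762079) and is shown because these were the strongest and the third strongest distal peaks. The next 3, from a lincRNA upstream of cmd-1 (chrV:1151462-1151562), from between T04C4.3 and fnip-2 (chrIV:2219573-2219673) and from upstream of fos-1 (chrV:6000465-6000565), also overlapped thresholded peaks. The last 3 are a GA-rich window upstream of nhr-88 (chrII:2973998-2974098), a GC-rich window upstream of tra-1 (chrIII:11203141-11203241) and an AT-rich window between egl-4 and egl-18 (chrIV:1880656-1880756). Capitals mark any match, on either strand, to the 10 motifs searched, which are listed with their shares further on.
F44E5.4: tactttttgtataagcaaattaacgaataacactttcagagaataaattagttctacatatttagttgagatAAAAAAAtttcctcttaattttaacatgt
F44E5.5: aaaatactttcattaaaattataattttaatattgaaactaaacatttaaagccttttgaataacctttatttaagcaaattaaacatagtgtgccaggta
cmd-1: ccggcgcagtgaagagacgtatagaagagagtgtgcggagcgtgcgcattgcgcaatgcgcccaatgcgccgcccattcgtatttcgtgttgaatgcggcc
T04C4.3: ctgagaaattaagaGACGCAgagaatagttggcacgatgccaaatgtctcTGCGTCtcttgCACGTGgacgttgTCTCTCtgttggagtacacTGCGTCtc
fos-1: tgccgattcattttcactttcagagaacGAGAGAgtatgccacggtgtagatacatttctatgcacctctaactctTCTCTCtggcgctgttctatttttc
nhr-88: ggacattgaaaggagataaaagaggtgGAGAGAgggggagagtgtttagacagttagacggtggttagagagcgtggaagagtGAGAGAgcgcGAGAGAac
tra-1: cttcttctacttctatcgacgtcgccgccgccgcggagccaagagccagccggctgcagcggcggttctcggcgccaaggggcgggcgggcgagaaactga
egl-18: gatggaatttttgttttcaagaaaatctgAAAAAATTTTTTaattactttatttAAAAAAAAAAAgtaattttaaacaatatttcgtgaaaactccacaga

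The pair at the Hsp70 genes was the strongest locus. F44E5.4 and F44E5.5 (WBGene00009691 and WBGene00009692) encode proteins of the Hsp70 chaperone family and are transcribed away from each other. The peak 67 bp beyond the 3′ end of F44E5.4 (chrII:11756915-11757064) had a signal value of 62.4 in the pooled list, 19.3 in replicate 1 and 63.3 in replicate 2. The signal value is the peak caller's own and differs in scale between lists, so values are compared only within a list. The peak 168 bp beyond the 3′ end of F44E5.5 (chrII:11761869-11762188) had 52.6 in the pooled list, 11.8 in replicate 1 and 44.9 in replicate 2. Each replicate therefore had a peak at both ends of the pair. The 350 bp between the 5′ ends held a weaker peak, at 21.2 (5.39 in replicate 1 and 16.3 in replicate 2), which is gene-proximal and did not overlap a thresholded peak. Within 5000 bp of the pair there were 3 more distal peaks, at 9.91, 18.4 and 21.3, and no pooled peak had its summit inside either gene. The ncRNA gene F44E5.16 had its 5′ end 255 bp from the strongest summit. The gene sequences, of 2205 and 2200 bp, are 99.2% identical, so reads within them can be placed at either copy and their counting is uncertain. The 500 bp after the 3′ ends, where the strong peaks lie, are 48.8% identical. Whether this duplication bears on the peaks was not tested.

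Overlap with the shorter list of peaks that passed the authors' threshold on the irreproducible discovery rate (IDR), which asks whether replicates rank a peak alike, was rare. Of the 3175 distal peaks, 12 overlapped a thresholded peak by at least 1 bp (0.378%), against 169 of all 20460 autosomal peaks (0.826%). Gene-proximal peaks had 108 of 5878 (1.84%) and peaks inside genes 49 of 11407 (0.430%). With each replicate's own list classed by the same positions, the distal share was 0.403% and 0.407%, the gene-proximal share 1.94% and 1.76%, and the share inside genes 0.369% and 0.400%, in replicates 1 and 2. The distal share was thus below the gene-proximal share in the pooled list and in both replicate lists. Distal peaks were below peaks inside genes in the pooled list and above them in both replicate lists. The IDR threshold draws on both replicates, so the replicate lists hold largely the same thresholded places. The likeness of their shares is therefore not an independent measure of spread. Of the 12, called thresholded distal peaks below, 10 were themselves in the thresholded list with the same interval and summit.

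Beside the Hsp70 pair, the thresholded distal peaks lay near genes of several kinds. The peak in the 646 bp between nlp-40, which encodes an intestinal neuropeptide-like protein, and rcor-1, a co-repressor of the CoREST family, had 57.6 in the pooled list (13.1 in replicate 1 and 42.7 in replicate 2; chrI:16853-17172). It lay 176 bp past the 3′ end of nlp-40, and counts as distal because the genes converge and the nearest 5′ end was 5518 bp away. Peaks inside lincRNA genes were at linc-91, 2743 bp upstream of the chromatin remodeller chd-7 (49.5, with 16.2 and 30.5 in replicates 1 and 2; chrI:4701158-4701477), and at linc-128, 4759 bp upstream of the calmodulin gene cmd-1 (45.2, with 17.1 and 26.5; chrV:1151352-1151671). The peak 3086 bp upstream of fos-1, a Fos-family transcription factor, had 38.6 (13.0 in replicate 1, and rank 665 in replicate 2; chrV:6000355-6000674) and lay 23 bp from the 5′ end of the ncRNA gene C10F3.15. These peaks were called in both replicates, at rank 665 or better in each.

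The remaining thresholded distal peaks lay near a further set of genes. A peak 2621 bp upstream of Y17G7B.17 had 43.1 (10.2 in replicate 1 and 32.5 in replicate 2; chrII:12102450-12102769), and a second distal peak beside it, at 21.6, overlapped the same replicate and thresholded peaks. Between atfs-1, the transcription factor of the mitochondrial unfolded protein response, and T16A9.3 the value was 42.5 (14.7 and 27.4; chrV:14200052-14200371). Upstream of the RNA-binding protein gene sup-26 the distal peak had 24.8, while the replicate peaks that overlapped it had 20.9 and 47.5 (chrIII:4282259-4282578). At 2 of the 12, singled out after their values were seen, the replicate ranks were far apart. The peak upstream of T26H5.8 had 39.6 (chrV:15435224-15435543) and ranked 129 in replicate 2, at 34.0, but 12998 in replicate 1, at 3.96. The peak between T04C4.3 and fnip-2 had 39.1 (chrIV:2219463-2219782) and ranked 57 in replicate 1, at 24.6, but 3239 in replicate 2, at 16.3.

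**Figure D1:**
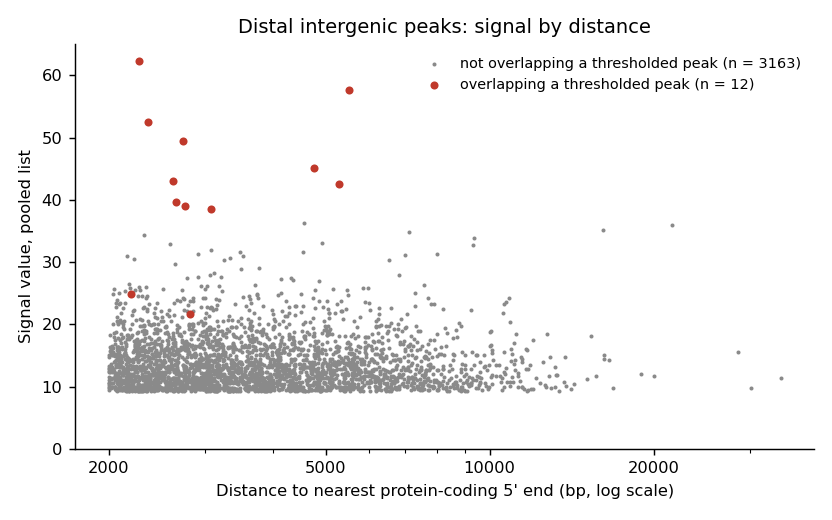
Signal value in the pooled list (vertical axis) against distance to the nearest protein-coding 5′ end in bp (horizontal axis, log scale), with 1 point for each of 3175 distal peaks. Red points are the 12 that overlap a thresholded peak, and 10 of them lie at 38.6 or higher, over a dense band from 9.21 upward that looks alike at all distances.

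Signal values of distal peaks as a whole were close to those of all autosomal peaks. The median was 12.6 (quartiles 10.7 and 15.6) against 12.5 (10.7 and 15.5) for all autosomal peaks, and the ratio of these medians was 1.01 in the pooled list, 1.00 in replicate 1 and 1.01 in replicate 2. Gene-proximal peaks had a ratio of 1.05 in the pooled list (1.05 and 1.04 in the replicates) and peaks inside genes 0.978 (0.981 and 0.982). The classes differed more among the strongest peaks. The upper 5% of autosomal peaks by signal held 146 distal peaks (4.60% of distal peaks; 4.26% and 4.54% in the replicate lists), against 485 gene-proximal peaks (8.25%; 9.09% and 7.75%). The highest distal value was 62.4, against 171 for gene-proximal peaks and 140 inside genes. The distal peaks nearest to the 2000 bp limit, at 2000 to 2500 bp, had a median of 12.8 (n = 666), and the gene-proximal peaks at 1500 to 2000 bp also had 12.8 (n = 814).

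Among distal peaks, distance made little difference to signal. Peaks at 2000 to 3000 bp from the nearest 5′ end had a median of 12.7 (n = 1155), those at 3000 to 5000 bp 12.7 (n = 1197), those at 5000 to 10000 bp 12.5 (n = 731) and those beyond 10000 bp 12.2 (n = 92). Distal peaks that overlapped a thresholded peak numbered 8, 2, 2 and 0 in these groups, in the same order. The strongest peak beyond 10000 bp, at 36.0, lay 21616 bp upstream of egl-18, a GATA transcription factor gene, and 110 bp past the 3′ end of egl-4, the cGMP-dependent protein kinase gene (7.48 in replicate 1 and 28.1 in replicate 2; chrIV:1880546-1880865). Its window was 18.8% GC. The most remote peak, 34215 bp from a 5′ end, was weak (11.3) and lay between sql-1 and aakg-1 on chromosome III.

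In the pooled list, replicate overlap was close to that in the autosomes at large. A peak in both replicates overlapped 908 of the 3175 distal peaks (28.6%), against 29.1% of all autosomal peaks. Another 244 distal peaks (7.69%) overlapped a peak in neither, against 7.87% of all autosomal peaks. Replicate 2 had a peak at 2527 distal peaks (79.6%) and replicate 1 at 1312 (41.3%), against 79.5% and 41.8% of all autosomal peaks. The pooled list is made from both replicates, so these shares do not measure agreement of independent lists. Of the distal peaks in replicate 1's own list, 32.8% overlapped a peak of replicate 2, and 959 of the 3195 in replicate 2's list overlapped a peak of replicate 1. The pooled summit lay inside a replicate 1 interval for 33.4% of distal peaks and inside a replicate 2 interval for 75.9%. For all autosomal peaks these shares were 33.6% and 76.1%. The replicate intervals covered 9.12% and 9.16% of all distal intergenic bases. Pooled summits come from the same reads as those intervals, so the gap to these base shares was largely fixed in advance.

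Overlap rose steeply with signal. Of distal peaks with a value up to 10, 12.3% overlapped a peak in both replicates (n = 463), of those from 15 to 20, 43.2% (n = 674), of those from 20 to 30, 66.8% (n = 217), and above 30, 30 of 31 did (96.8%). Gene-proximal peaks of like signal had 11.2%, 49.1%, 67.4% and 92.6%. The peak above 30 that lacked an overlap, at 30.6 with npax-1 nearest, on chromosome II, had none in replicate 1. Across the 908 distal peaks in both replicates, the replicate values had a Spearman's rho of 0.0792, against 0.238 for 2011 gene-proximal peaks and 0.170 for 3044 peaks inside genes. These are descriptions across peaks, which share libraries and are not independent. In both replicates at once, 20 distal peaks were among the first 1000 by signal and 81 (2.55%) among the first 5000, against 5.36% of gene-proximal peaks and 2.17% of peaks inside genes.

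**Figure D2:**
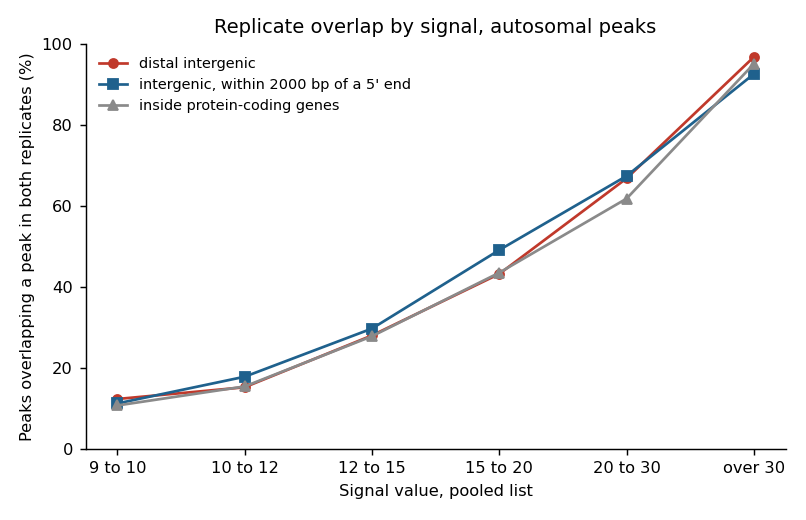
Share of autosomal peaks that overlap a peak in both replicates (vertical axis, %) by signal value in the pooled list (horizontal axis), for distal, gene-proximal and intragenic peaks. All 3 lines climb together, from 10.7% to 12.3% in the lowest bin to 92.6% to 96.8% in the highest.

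**Figure D3:**
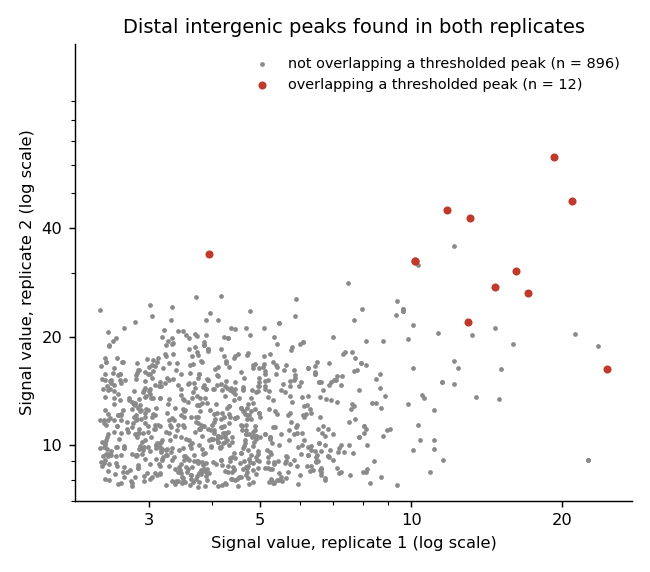
Signal value in replicate 2 (vertical axis, log scale) against replicate 1 (horizontal axis, log scale), with 1 point for each of 908 distal peaks found in both. The 12 peaks that overlap a thresholded peak (red, of which 2 have the same replicate values) lie toward high values of at least 1 replicate, and the rest form a cloud with no visible slope.

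Distal peaks were denser in chromosome centres than in arms. The 76.4 Mb of autosomal DNA analysed holds 10.9 Mb (14.3%) in which a distal summit could lie, here called distal intergenic DNA. In it, 291 peaks per Mb were found, against 264 per Mb in the rest and 268 over all autosomal DNA analysed. The replicates did not share this order. Replicate 1 had 273 per Mb of distal intergenic DNA against 286 over all autosomal DNA analysed, and replicate 2 had 293 against 273. The centre is taken as the middle 50% of each chromosome. Centres had 340 distal peaks per Mb of distal intergenic DNA (1769 peaks) and arms 247 (1406 peaks), with 315 against 235 in replicate 1 and 338 against 252 in replicate 2. This difference was larger than the spread between replicates. All autosomal peaks together had 284 per Mb in centres and 252 in arms. As a share, arms held 44.3% of distal peaks and 52.3% of distal intergenic DNA.

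The centre was denser on chromosomes I, II, IV and V in the pooled list and in both replicates. On V it had 355 per Mb against 229 in the arms, on I 375 against 242, on IV 373 against 271 and on II 291 against 191. On III the order was not stable, with 313 in the centre and 323 in the arms, 310 and 270 in replicate 1, and 287 and 333 in replicate 2. Signal differed little by zone, with medians of 12.9 in centres and 12.4 in arms. Of the distal peaks that overlapped a thresholded peak, 7 were in arms and 5 in centres. Chromosome V had the most distal peaks (914) and II the fewest per Mb (240).

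**Figure D4:**
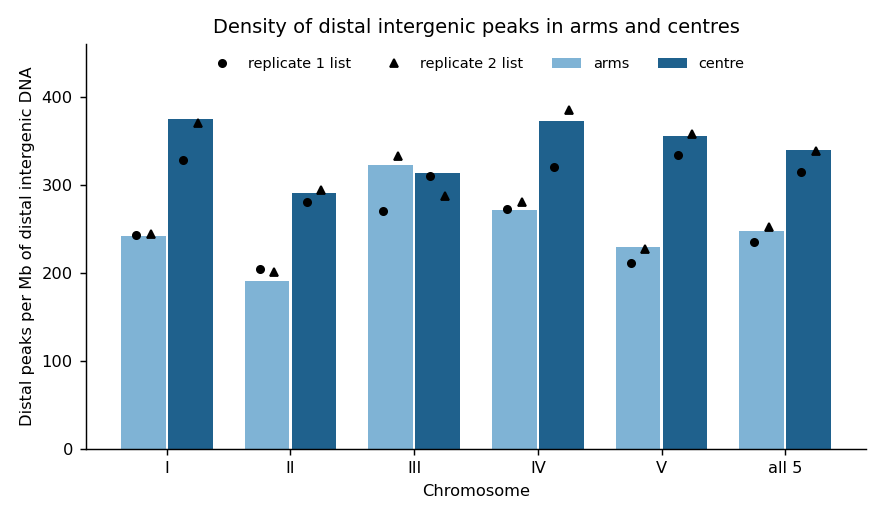
Distal peaks per Mb of distal intergenic DNA (vertical axis) in arms (light bars) and centres (dark bars) of each autosome and of all 5, from the pooled list, with the lists of replicate 1 (circles) and replicate 2 (triangles). Centres exceed arms on every chromosome but III, where the replicates differ in order.

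The intervals around distal peaks were longer than those around gene-proximal peaks. The distance rule largely fixes this in advance, because a short interval can hardly hold a summit more than 2000 bp from every 5′ end. Their median length between flanking protein-coding genes was 8438 bp, against 2336 bp for gene-proximal peaks. Flanking genes were on the same strand for 1795 distal peaks (56.5%), pointed apart for 999 (31.5%) and converged for 379 (11.9%), and 2 lay at a chromosome end. Per Mb of distal intergenic DNA of each kind, intervals between converging genes had 195 distal peaks, same-strand intervals 303 and intervals between genes pointing apart 332. Medians were alike, at 12.3, 12.7 and 12.6. A 3′ end lay within 500 bp of 393 distal peaks (12.4%), against 9.54% of distal intergenic bases. These included 3 of the 12 thresholded ones, at F44E5.4, F44E5.5 and nlp-40. Another 2136 (67.3%) were more than 2000 bp from any protein-coding gene end, against 67.2% of distal intergenic DNA, and their highest value was the 49.5 at linc-91.

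Distal peaks were spread over many short runs. Linking members up to 10000 bp apart gave 1310 groups, 576 of them single peaks and 19 with 10 or more. The largest, of 15 peaks, lay over 21826 bp on chromosome I around idhg-2 and trhr-1 (median 14.5, highest 25.7) and over 24846 bp on IV between nhr-258 and the cell adhesion gene sax-7 (median 12.9, highest 22.3). None of the 5 largest groups held a thresholded peak. All but 1 of the distal peaks had the caller's standard width of 320 bp, and the exception was the strongest, at F44E5.4, with 150 bp.

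A non-coding gene held the summit, or had its 5′ end within 500 bp, for 654 distal peaks (20.6%; 25.5% and 19.7% in the replicate lists), while such places made up 26.6% of distal intergenic DNA. Replicate 1 was the closer to that share. Pseudogenes and their surroundings made up 16.7% of distal intergenic DNA and had 292 peaks (9.20%), or 160 per Mb (195 and 156 in the replicates) against 291 for all distal intergenic DNA. The other 2521 distal peaks had a median of 12.6 and 8 of the 12 thresholded overlaps. A peak near several kinds of gene counts under each.

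In the pooled list and in replicate 1, snoRNA and tRNA genes had the highest densities, and in replicate 2 the piRNA genes did. The snoRNAs, which guide chemical modification of other RNAs, had 28 distal peaks in or beside them, at 21 genes, 779 per Mb of their surroundings (668 and 473 in replicates 1 and 2). In the replicate lists 24 and 17 peaks lay there. Among the 25 strongest distal peaks, 4 lay at snoRNA genes, namely Y23H5B.10, T19B4.8, F30H5.4 and H09I01.2. Y23H5B.10 had 35.1 (13.2 in replicate 1 and 20.2 in replicate 2) with the summit 7 bp inside the gene and 16170 bp from a protein-coding 5′ end. T19B4.8 had 33.0 (12.2 and 35.6), F30H5.4 32.7 (11.3 and 20.5) and H09I01.2 31.2 (9.63 and 23.8). None of the 28 overlapped a thresholded peak, and 15 overlapped a peak in both replicates (53.6%). Transfer RNA genes had 21 distal peaks, 568 per Mb (677 and 433), led by WBGene00022923 at 25.5 and WBGene00014588 at 22.7.

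Genes of the broad ncRNA class had 245 distal peaks, 310 per Mb (382 and 279 in the replicates), with 15 among the 100 strongest. Beside F44E5.16 and C10F3.15, C46C2.11 had 31.0 and T19C3.11 28.9. The lincRNAs had 39 (296 per Mb, with 296 and 342 in the replicates), where linc-167 (19.5) and linc-26 (19.0) followed linc-91 and linc-128. The microRNAs had 11 (255 per Mb), the highest at 20.5 beside cel-mir-8209, followed by cel-mir-2218b (18.0), mir-262 (16.5) and cel-mir-1820 (15.4). The piRNA genes outside the excluded clusters had 61 (426 per Mb; 363 and 482), antisense RNA genes 2 (at most 13.0), snRNA genes 3, at most 15.2, and rRNA genes 0 in the pooled list and in both replicate lists.

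**Figure D5:**
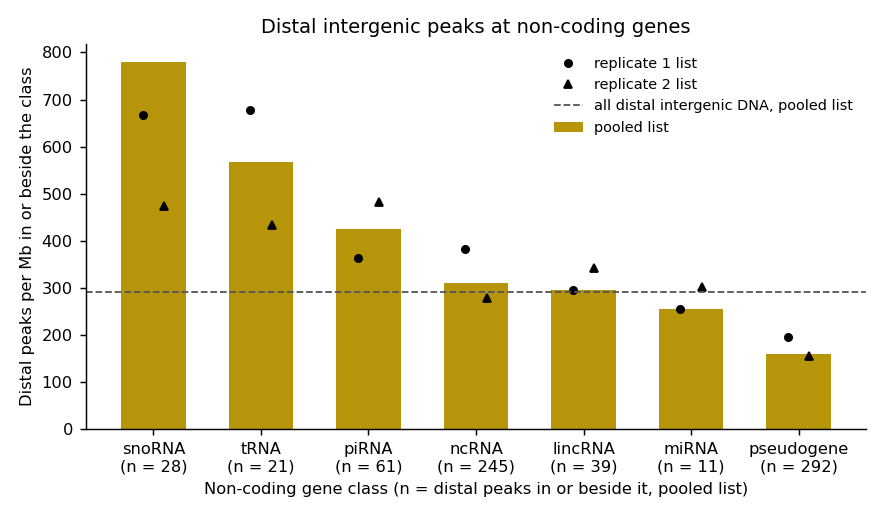
Distal peaks per Mb of distal intergenic DNA in or within 500 bp of the 5′ end of each class of non-coding gene (vertical axis), from the pooled list (bars), replicate 1 (circles) and replicate 2 (triangles), with the density of all distal intergenic DNA as a dashed line. Bars for snoRNA, tRNA, piRNA and lincRNA genes and both their replicate points lie above the line, with the lincRNA bar close to it. Those of pseudogenes lie below it.

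By nearest 5′ end, distal peaks were assigned to 1897 of 16301 autosomal protein-coding genes. The genes with most were npr-3, a neuropeptide receptor gene, and F58H10.1, with 9 each, and the posterior Hox gene nob-1 had 7. Neuropeptide genes were nearest to 57 distal peaks (1.80%; 1.41% and 1.63% in the replicates), where they held 1.37% of distal intergenic DNA. Beside nlp-40, the highest were ins-21 (22.6), ins-1 (21.5) and flp-21 (20.7). Nuclear hormone receptor genes were nearest to 76 (2.39%; 2.52% and 2.32%; 2.12% of the DNA), led by nhr-88 (32.9, with 16.0 and 19.1 in the replicates) and nhr-20 (30.3), then nhr-34 (24.8) and nhr-68 (23.0). Transcription factor genes named ceh, hlh, tbx, elt, sox, fkh or lim, a limit that leaves out fos-1 and egl-18, had 34 (1.07%; 0.839% and 1.28%; 1.10% of the DNA), and the highest among these names were tbx-34 (23.6), hlh-10 (23.4), hlh-14 (20.2) and tbx-33 (18.2). The assignment is by distance and does not show which gene, if any, a site serves.

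Chemoreceptor and F-box genes, both large families in worms, had fewer distal peaks than their share of distal intergenic DNA. Chemoreceptors had 153 (4.82%; 4.90% and 4.66% in the replicates) on 6.39% of the DNA, led by srh-16 (26.9), srh-82 (26.5), sri-5 (25.5) and sre-18 (24.3). F-box genes had 23 (0.724%; 0.772% and 0.657%) on 1.74%, with fbxc-48 highest (17.7). MATH and BATH genes had 3 (0.0945% on 0.456%; math-49 at 16.3), cytochrome P450s 5 (0.157% on 0.274%; cyp-13A4 at 23.9) and C-type lectins 21 (0.661% on 0.790%; clec-1 at 24.6). Collagens were above their share of the DNA in all lists, with 20 (0.630% on 0.540%, 0.638% and 0.595% in the replicates, col-98 at 16.5). UDP-glucuronosyltransferases, glutathione S-transferases and genes named hsp were above it in the pooled list but not in both replicate lists. The first had 6 (0.189% on 0.141%, 0.0671% and 0.219% in the replicates, ugt-32 at 19.2). Glutathione S-transferases had 3 (0.0945% on 0.0920%, 0.0671% and 0.0939% in the replicates, gst-35 at 17.5). Genes named hsp had 2 (0.0630% on 0.0529%, 0.101% and 0% in the replicates, hsp-16.1 at 13.1). Ribosomal protein genes had 7 (0.220% on 0.228%, 0.302% and 0.156% in the replicates, rps-27 at 13.2). Histone genes had 0 in all lists, on 0.0120% of the DNA. The Hsp70 pair is not named hsp in the annotation and so is not in that count.

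Markers of cell types were mostly near weak distal peaks. Those nearest to at least 1 distal peak were 5 of 10 neuronal and 2 of 7 intestinal markers. The same held for 1 of 5 body wall muscle, 1 of 5 pharyngeal and 1 of 4 hypodermal markers. Of all autosomal protein-coding genes, 11.6% were nearest to a distal peak. Among neuronal markers, snt-1, which encodes synaptotagmin, had the highest at 20.3. The syntaxin gene unc-64 (14.3), unc-104 (10.7) and unc-31 (10.5) followed. The myosin gene myo-3 of body wall muscle had 16.0, pha-4 of the pharynx 13.3, the intestinal GATA factor gene elt-7 12.3 and elt-1 of the hypodermis 9.55. The 6 germline markers on the autosomes analysed had 0, on 0.0133% of distal intergenic DNA. Neuronal markers had 0.220% of distal peaks on 0.159% of the DNA, intestinal markers 0.0630% on 0.160%, body wall muscle markers 0.0630% on 0.0283%, pharyngeal markers 0.0630% on 0.0468% and hypodermal markers 0.0315% on 0.0658%. The order against the DNA was the same in both replicate lists except for hypodermal markers, with 0.101% in replicate 1 and 0% in replicate 2. None of the distal peaks nearest to a marker overlapped a thresholded peak.

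Distal summits were AT-rich. The 101 bp around them had a median GC content of 27.7% and a mean of 29.3%, against 35.1% over all distal intergenic DNA, and all autosomal peaks also had a median of 27.7%. Replicate 1's own distal peaks had a median of 32.7% and replicate 2's 27.7%, so the pooled value was that of replicate 2. The strongest peaks were less AT-rich, with a median of 42.6% for the 31 peaks above a signal of 30, against 47.5% for gene-proximal peaks and 41.6% for peaks inside genes above 30. Repeats masked in the genome sequence covered 49.2% of distal summit bases in the pooled list, 50.9% of all autosomal summit bases and 41.0% of distal intergenic DNA. Within the 101 bp around distal summits, the median masked share was 47.5% in the pooled list, 33.7% in replicate 1's list and 49.5% in replicate 2's. The pooled value was thus near that of replicate 2, and an excess over distal intergenic DNA was not shown for replicate 1.

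Motifs were searched on both strands within 50 bp of the summit. The nuclear receptor element AGGTCA was at 82 distal peaks (2.58%; 3.02% and 2.07% in the replicate lists) and at 1.82% of all autosomal peaks (2.40% and 1.73%), and at 1 of the 100 strongest distal peaks. AGTTCA was at 7.46% against 6.50%, and GGGTCA at 1.01% against 1.01%. None of these 3 was at a thresholded distal peak. GAGAGA was at 6.08% of distal and 5.20% of all autosomal peaks (7.68% against 7.31% and 5.04% against 4.88% in the replicate lists). Gene-proximal peaks had it at 6.57% and peaks inside genes at 4.25%. It was at 20 of the 100 strongest distal peaks and 6 of the 12 thresholded ones, as in the windows printed above for T04C4.3 and fos-1. GACGCA was at 1.73% against 1.92%, with 3.15% of gene-proximal peaks and 1.33% of peaks inside genes. It was at 9 of the 100 strongest distal peaks and at 4 of the 12. Shares among the strongest peaks of the other classes are not given, so these counts do not set distal peaks apart. CACGTG was at 1.01% against 1.05%, TGATAA at 10.9% against 11.0%, the telomere repeat TTAGGC at 2.33% against 2.25%, TATAAA at 17.0% against 17.0% and AAAAAA at 57.9% against 58.4%. A match is a description of the sequence and not evidence of a site.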

How the data were processed

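ChIP-seq peak lists from 2 biological replicates were used. The authors deposited a relaxed list for each replicate and for the pooled alignments, made against a control as input for the irreproducible discovery rate (IDR), and a list of pooled peaks past an IDR threshold, per the accompanying notes. The deposited signal value (column 7) is the caller's, on a scale that differs between lists. The aligner, the peak caller with its settings and the kind of control are not given here by any source, and read depth is unknown.

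Lists on ce11 were used with positions as deposited, counted from 1, with Ensembl release 115 genes and the RefSeq WBcel235 genome, the same assembly. A gene's 5′ end is its outermost end. Lists were taken to overlap from 1 bp. Intervals, motifs and base counts were computed in Python 3.11.15 with numpy 2.4.6 and pandas 2.3.3, and checked on positions with known answers (1500 of 1500 right). Spearman correlations are descriptive.

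Gene families were defined by name prefixes, and marker lists by fixed names. Genes were named where they lay nearest to the 25 strongest members or to members overlapping a thresholded peak, plus up to 4 per family, biotype or marker list. The members and lists were chosen with earlier results of these data known. With 1 group there was no condition to test, so differences are set beside the values of the 2 replicate lists. The ce10 lists were not used.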

Additional observations from a re-analysis of the deposited data

How the results depend on the processing

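The 7 summary values were recomputed under alternative settings, most of which applied to several of them, giving 74 values. Of these, 35 stayed within the spread between replicate lists, or within 1.5 times for the number of peaks. That spread was small for several shares, so small shifts count as moves. No paired analysis was possible because there was 1 group. The number of distal peaks, 3175, became 5018, 2020 and 823 at 1000, 3000 and 5000 bp, and 1626 in the upper 50% by signal. The arm share, 44.3%, was 43.6%, 45.6% and 51.5% at those distances, 42.6% outside all genes other than piRNA genes, 41.5% in the upper 50%, 61.8% and 35.9% with wider arms and with arms as the outer 20%, and 44.9% to 45.0% with 1 replicate. The share in both replicates, 28.6%, was 41.1% in the upper 50%, 20.2% with overlap of 50%, 20.1% with the summit inside and 5.80% within the upper 10000. With 1 replicate left out it becomes another quantity, the share that overlaps a peak of the remaining replicate, which was 41.3% to 79.6%. The thresholded share, 0.378%, was 0.418%, 0.198% and 0.243% at 1000, 3000 and 5000 bp, 0.344% outside all genes, 0.738% in the upper 50%, 0.315% with overlap of 50% or identical intervals, and 0.403% to 0.407% with 1 replicate. The ratio of medians, 1.01, was 1.01, 0.999, 1.01 and 0.998 at 1000 bp, at 5000 bp, outside all genes and in the upper 50%, and 1.00 to 1.01 with 1 replicate. The share at non-coding genes, 20.6%, was 13.2% outside all genes, 10.8% and 30.2% within 100 and 1000 bp, and 19.7% to 25.5% with 1 replicate. Median GC, 27.7%, was 27.7% to 32.7% with 1 replicate. With 5′ ends of all transcripts, chosen after seeing the data, the arm share was 44.0% and the thresholded share 0.355%. The causes were not tested. Read depth is unknown, and peaks without an overlap in a replicate may have fallen below its list's end.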
